A study of Mus musculus with 4 samples.

Results

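The cells described here were 7140 barcodes of the 2 libraries of postnatal day 13, 4541 from the wild-type library WT-P13 and 2599 from the mutant library labelled Sox9fl:flAcanCreER-P13. They were chosen by measured values. A barcode was taken when it had at least 500 genes and at most 15% mitochondrial UMIs (unique molecular identifiers, each standing for 1 captured RNA molecule), 0 UMIs of Ptprc, the gene of the blood-cell surface protein CD45, and at least 100 UMIs of Col2a1 per 10000 UMIs. These gated cells were 7140 of the 13769 barcodes that passed the gene and mitochondrial limits at day 13, and of the 39898 barcodes in all 4 libraries.

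SOX9 is the transcription factor that starts and maintains the chondrocyte programme, and together with its partners SOX5 and SOX6 it binds enhancers of the genes for type II, IX and XI collagen, aggrecan and matrilins. Col2a1 encodes type II collagen, the main collagen of cartilage, so a gate on Col2a1 aims at cells that still make cartilage collagen in either genotype. It does not show that each barcode taken makes it. Among barcodes with a Ptprc UMI that passed the gene and mitochondrial limits, 155 wild-type and 76 mutant ones also reached that Col2a1 level. Whether free RNA or droplets holding 2 cells gave this was not tested. In the growth plate, chondrocytes pass through resting, proliferating and hypertrophic stages, and the last of these borders on bone, where osteoblasts lay down type I collagen, bone sialoprotein and osteocalcin.

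The labels give dissected tibial and femoral ends, a Liberase digest, and droplet capture with Chromium version 3 chemistry, in 4 libraries: wild type and mutant, at postnatal days 13 and 19. Both mutant libraries carry floxed Sox9 alleles with CreER under Acan, the aggrecan gene, which is itself a cartilage gene, so recombination is limited to cells with Acan activity when the enzyme is switched on. The sources used here do not give the tamoxifen schedule, the floxed exons, the strain or how many mice went into each library, nor whether the wild-type mice carried the Cre or received tamoxifen. With 1 library for each genotype and age there is no spread between mice and no test of genotype, and every interval below covers counting error only.

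The gated cells held 59220796 UMIs in the wild type and 32648269 in the mutant, with close median depths of 11618 and 11539 UMIs per cell. All 8 chondrocyte markers (Col2a1, Col9a1, Col9a2, Col9a3, Col11a2, Matn3, Hapln1 and Cnmd) were above 10 CPM (UMIs of a gene scaled to 1000000 UMIs) in both libraries, and their sum was 91525 CPM in the wild type and 43406 CPM in the mutant, of which Col2a1, the gene that chose the cells, was 65697 and 34128 CPM. Summed markers of other cells were low for T and NK cells (0.118 and 0.582 CPM summed over 3 genes), endothelium (9.69 and 13.8 CPM over 4) and adipocytes (0.523 and 0.490 CPM over 3), and the muscle gene Myh4 was at 0 in both. Fibroblast and tendon markers (5 genes, 3204 and 9918 CPM) and osteoblast markers (4 genes, 2615 and 14304 CPM) were not low and were higher in the mutant. Erythroid markers, at 2840 and 1343 CPM, were lower in the mutant, and macrophage and osteoclast markers (19.98 and 23.1 CPM), B cell markers (51.5 and 36.8 CPM) and pericyte markers (45.7 and 41.5 CPM) were low in both. The 2 libraries shared 3 gated barcodes. Ddx3y, a Y-linked gene, was at 87.1 to 92.6 CPM in the gated cells of all 4 libraries, and Xist at 0.0993 to 0.314 CPM.

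The gate does not cut the same kind of edge in the 2 libraries. It took 71.6% of kept barcodes in the wild type (95% exact Clopper-Pearson interval 70.5 to 72.7) and 35.0% in the mutant (33.9 to 36.1). The median Col2a1 level of the cells it took was 607 per 10000 UMIs in the wild type (10th to 90th percentile 322 to 1201) and 237 in the mutant (118 to 713). Just outside it, at 80 to 100 per 10000, lay 95 wild-type and 352 mutant barcodes, and just inside, at 100 to 120, lay 77 and 284. The few wild-type barcodes near the edge were shallow, with median depths of 1584 UMIs just outside and 1496 just inside, whereas mutant barcodes there had 10655 and 10062 UMIs. In the mutant, levels were close across the edge for Acan (842 CPM outside and 819 CPM inside) and Sox9 (187 and 195 CPM), while Mmp13, a collagenase, was at 1197 CPM outside and 585 CPM inside.

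**Figure D1:**
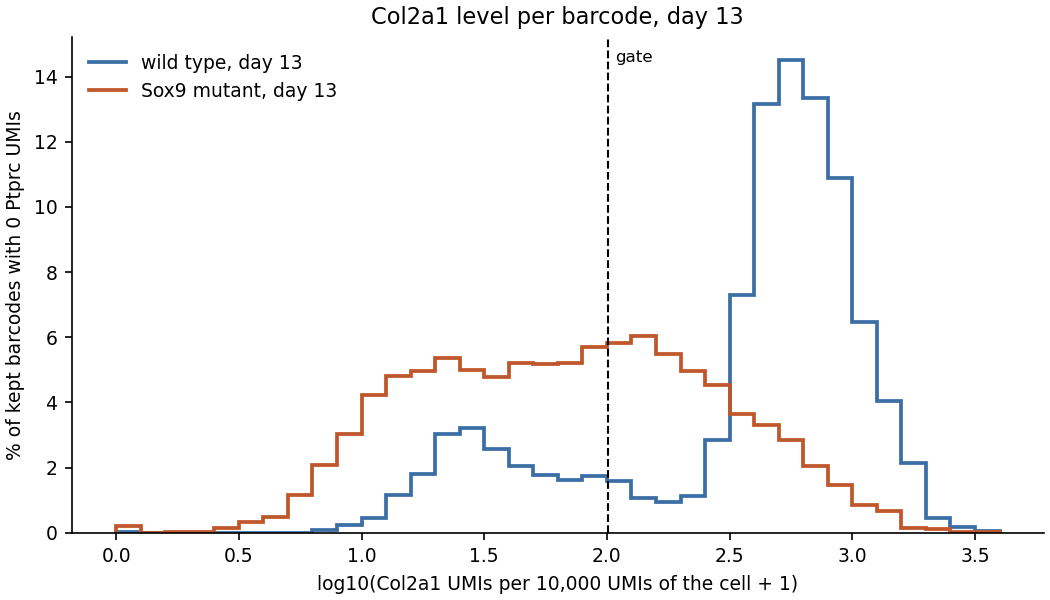
Distribution of Col2a1 per barcode in the day 13 libraries, over kept barcodes with 0 Ptprc UMIs; the horizontal axis is log10 of Col2a1 UMIs per 10000 UMIs plus 1, the vertical axis the percentage of those barcodes in each bin, and the dashed line the gate. Wild-type barcodes formed a peak well above the gate with few at the line, and mutant barcodes ran through the line without a gap, so the gate kept 4541 wild-type and 2599 mutant barcodes.

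Over all genes the mutant cells had many more genes at a higher level than at a lower one. A gene counted as measured at 10 CPM or more in the higher library, and as called when the libraries differed 2-fold or more. Of 7311 measured genes, 565 were higher in the mutant (7.73% of measured genes) and 174 were lower (2.38%). Every count of list members below is to be read against these shares. By 4-fold or more, 140 were higher and 42 lower. The median log2 ratio of all measured genes was 0.15 on plain CPM. Trimmed-mean (TMM) factors moved that median to 0.01 and the split of calls from 565 higher and 174 lower (76.5% higher) to 429 and 238 (64.3%), and DESeq2 size factors gave 422 and 245 (63.3%). All ratios below are mutant over wild type on plain CPM.

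**Figure D2:**
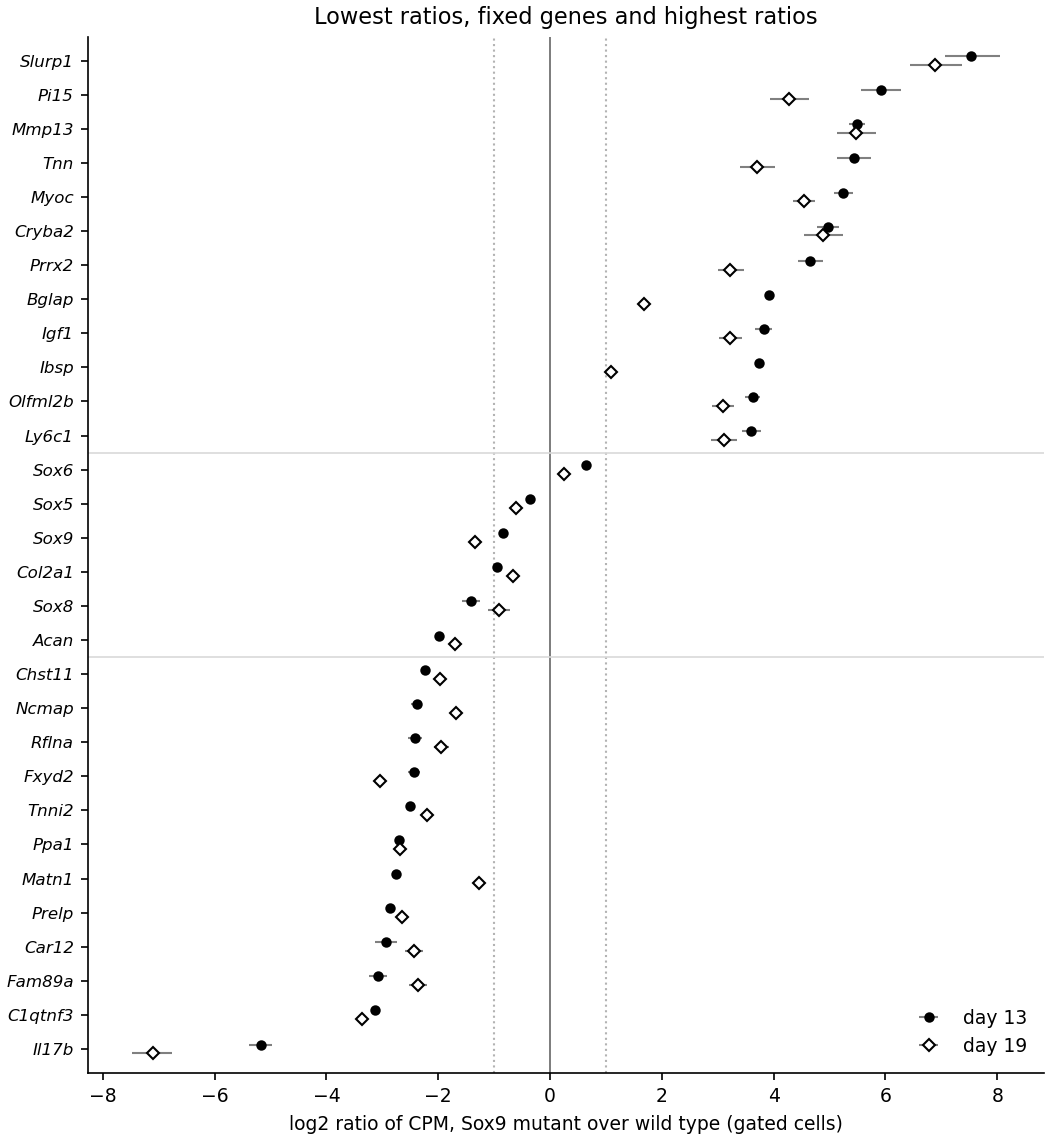
Log2 ratio of CPM, mutant over wild type, in gated cells for the 12 lowest genes, 6 genes named by rule and the 12 highest genes at day 13 (filled circles) with the same genes at day 19 (open diamonds); bars are 95% counting intervals and dotted lines mark 2-fold. At day 13 the lowest was Il17b at -5.17 and the highest Slurp1 at 7.54, and each of the 24 ranked genes kept its sign at day 19.

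Sox9 itself, the targeted gene on chromosome 11 (chr11:112782224-112787760, GRCm38, plus strand), was at 356 CPM in wild-type and 199 CPM in mutant cells, a log2 ratio of -0.84 (95% interval -0.88 to -0.80). At 3000 UMIs per cell, drawn at random from each, 56.4% of 4192 wild-type cells held a Sox9 UMI (54.9 to 57.9) and so did 41.9% of 2431 mutant cells (40.0 to 43.9). Among barcodes with a Ptprc UMI and Col2a1 below the gate, blood cells in which cartilage genes should come only from free RNA, the shares were 7.59% and 8.61%, so Sox9 RNA in gated mutant cells stood above that background. The chemistry reads transcript ends and the floxed exons are not given, so these UMIs do not show which cells had recombined.

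The other SOX genes did not move as 1 group. Sox5, a partner of SOX9, was at 152 CPM in the wild type and 119 CPM in the mutant (-0.36), and Sox6, the other partner, at 65.3 and 102 CPM (0.64). Sox8, the closest relative of Sox9, was at 32.2 and 12 CPM (-1.42). The sample labels name no Sox8 allele, but the series' design text also names animals mutant for both genes, so whether this library carries one is not given. Sox4, a factor of progenitor cells, was at 41.7 and 133 CPM (1.68), but it was also at 247 CPM in mutant barcodes with a Ptprc UMI. Of the 6 measured SOX genes, 1 was 2-fold higher and 1 lower, with a median of -0.43.

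The cartilage collagens and several of the most abundant cartilage matrix genes were lower in the mutant cells. Acan, which encodes the large proteoglycan that holds water in cartilage, was at 4337 CPM in wild-type and 1091 CPM in mutant cells, a log2 ratio of -1.99 (-2.01 to -1.97). Type IX collagen, which coats the type II fibrils, was lower in each chain: Col9a3 at 7286 and 2163 CPM (-1.75), Col9a2 at 4574 and 1382 CPM (-1.73) and Col9a1 at 3731 and 1703 CPM (-1.13). Type XI collagen, which sets fibril diameter, was at 6635 and 3127 CPM for Col11a1 and 3152 and 1434 CPM for Col11a2. Of the 7 cartilage collagens, 5 were 2-fold lower and 0 higher, with a median of -1.13. Within ranges of Col2a1 that median was smaller in size: -0.41 at 100 to 200 per 10000, -0.94 at 200 to 400, -0.62 at 400 to 800 and -0.22 at 800 or more. Col27a1 (974 and 538 CPM, -0.86) and Col2a1 (65697 and 34128 CPM, -0.94), which chose the cells, were inside 2-fold. Acan still had a UMI in 88.9% of thinned mutant cells against 99.4% of wild-type cells, and its median was 8.52 against 35.2 per 10000 UMIs, so the lower level was spread over most mutant cells. The 10th to 90th percentiles, 3.29 to 19.6 in the mutant and 13.7 to 66.4 in the wild type, overlapped.

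Among the other matrix proteins, 2 of the matrilins, adaptor proteins that link collagen and aggrecan, were lower. Matn1 was at 1917 and 285 CPM (-2.75) and Matn3 at 1303 and 286 CPM (-2.19). Matn1 was detected in 71.2% of thinned wild-type cells and 22.1% of mutant cells, and Matn3 in 78.4% and 29.0%, so here most mutant cells had no UMI. Of the Matn1 UMIs in the mutant, 50% lay in 83 cells (3.19% of cells), against 556 cells (12.2%) in the wild type. Prelp, a leucine-rich protein of the matrix, was at 559 and 77.2 CPM (-2.86). Ucma, a vitamin K-dependent protein of resting and upper growth plate cartilage, was at 2063 and 534 CPM (-1.95). Hapln1, the link protein that fixes aggrecan to hyaluronan, was at 3530 and 1215 CPM (-1.54). Acan and Hapln1 were the 2 lower members of the list of aggrecan, link proteins and hyaluronan genes, in which 1 of 8 measured members, Tnfaip6, was 2-fold higher, 5 were inside 2-fold and the median was -0.07.

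The list of matrilins and other cartilage proteins was not uniform. Of its 16 measured members, 5 were 2-fold lower and 2 higher, with a median of -0.54. The 2 higher members were Chad, chondroadherin, at 1040 and 2342 CPM (1.17), and Matn2, the matrilin of connective tissues outside cartilage, at 31.9 and 99.3 CPM (1.64). Comp, a pentameric protein of cartilage and tendon, was at 4037 and 5815 CPM (0.53). In the thinned cells Chad had a UMI in 71.4% of wild-type and 86.8% of mutant cells, against 17.8% and 37.4% of barcodes with a Ptprc UMI, so the higher share in mutant cells was above a background that was also higher.

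The enzymes that supply sulfate and build chondroitin chains on aggrecan included 5 of 15 measured genes 2-fold lower and 0 higher, with a median of -0.29. Chst11, the sulfotransferase that places sulfate on chondroitin, was at 363 and 77.0 CPM (-2.24). Papss2, which makes the sulfate donor, was at 255 and 94.3 CPM (-1.44), and Slc26a2, the sulfate transporter, at 129 and 48.8 CPM (-1.40). Ugdh, which makes the glucuronate precursor, was at 213 and 99.5 CPM (-1.10). The remaining member with a 2-fold difference was Csgalnact1, which starts the chain, at 64.6 and 30.8 CPM (-1.07), and the chain polymerases Chsy1 (0.14) and Chpf (0.23) were inside 2-fold.

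The lowest ratio of all ranked genes belonged to Il17b, a cytokine of the interleukin-17 family, at 220 CPM in wild-type and 6.13 CPM in mutant cells, a 36.0-fold difference. It had a UMI in 19.99% of thinned wild-type cells and 0.740% of mutant cells, against 0.990% and 0.445% of barcodes with a Ptprc UMI, so the mutant share was within the interval of its background. All 200 Il17b UMIs of the mutant lay in 45 cells, and 50% of them in 6. C1qtnf3, a secreted C1q-like protein of cartilage, was at 470 and 53.6 CPM (-3.13). The remaining lowest genes were Fam89a (-3.08), Car12, a membrane carbonic anhydrase (-2.93), Ppa1, a cytosolic pyrophosphatase (1577 and 243 CPM, -2.70), Tnni2, a troponin subunit (-2.50), Fxyd2, a regulator of the sodium pump (-2.44), Rflna (-2.42) and Ncmap (-2.39).

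Promoter sequences are shown for 2 lower genes (Col9a2 and Matn1) and 3 higher genes (Mmp13, Bglap and Myoc) that hold a SOX or RUNX motif, to set the letters beside the levels. The window is the 250 bases before the annotated start in the RefSeq table for GRCm38.p6, 5′ to 3′ on the strand of the gene, capitals mark the match, and positions count from that start. The RUNX motif searched was ACCACA. The SOX motif searched had 8 forms: AACAAAG as well as AACAATG, then ATCAAAG as well as ATCAATG, then TACAAAG as well as TACAATG, then TTCAAAG as well as TTCAATG. Both strands were searched, and no window shown holds both motifs.
Col9a2 (chr4:121039316-121039565, plus strand, SOX match at -178): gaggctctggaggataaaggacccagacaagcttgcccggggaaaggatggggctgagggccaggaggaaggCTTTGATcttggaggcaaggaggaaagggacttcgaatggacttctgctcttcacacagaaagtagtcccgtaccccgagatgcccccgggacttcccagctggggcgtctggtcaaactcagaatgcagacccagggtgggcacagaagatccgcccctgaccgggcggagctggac
Matn1 (chr4:130944135-130944384, plus strand, RUNX match at -134): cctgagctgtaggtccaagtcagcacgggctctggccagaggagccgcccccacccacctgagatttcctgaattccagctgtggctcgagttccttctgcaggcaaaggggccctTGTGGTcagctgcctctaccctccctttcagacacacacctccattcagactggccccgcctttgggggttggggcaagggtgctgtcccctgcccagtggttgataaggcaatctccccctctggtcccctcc
Mmp13 (chr9:7272264-7272513, plus strand, RUNX match at -118): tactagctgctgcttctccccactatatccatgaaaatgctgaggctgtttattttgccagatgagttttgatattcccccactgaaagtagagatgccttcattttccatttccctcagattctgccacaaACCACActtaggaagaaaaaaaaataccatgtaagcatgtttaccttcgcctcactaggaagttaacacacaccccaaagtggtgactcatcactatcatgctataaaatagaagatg
Bglap (chr3:88384467-88384716, minus strand, RUNX match at -132): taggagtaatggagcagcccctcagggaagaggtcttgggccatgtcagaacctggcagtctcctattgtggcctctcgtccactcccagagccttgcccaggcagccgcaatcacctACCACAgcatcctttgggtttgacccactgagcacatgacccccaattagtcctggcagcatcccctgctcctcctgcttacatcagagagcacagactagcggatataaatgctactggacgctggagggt
Myoc (chr1:162638900-162639149, plus strand, SOX match at -150): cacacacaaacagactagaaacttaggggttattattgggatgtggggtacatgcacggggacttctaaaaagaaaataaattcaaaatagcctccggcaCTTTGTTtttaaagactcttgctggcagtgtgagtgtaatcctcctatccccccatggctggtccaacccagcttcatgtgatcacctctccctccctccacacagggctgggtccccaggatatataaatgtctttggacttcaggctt
Over all 32851 promoters of the table, 21.8% held the SOX motif and 14.0% the RUNX motif. Among promoters of the called genes, the SOX motif was in 15.5% of 174 promoters of the 131 lower genes in the table and 14.6% of 555 promoters of the 418 higher genes, and the RUNX motif in 13.8% and 10.8%. A RUNX match is present both in Matn1, which was lower, and in Mmp13 and Bglap, which were higher, so these letters were found beside both directions. The windows of Acan, Matn3, Prelp and Ibsp held neither motif.

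Collagens of fibrous connective tissue were higher in the mutant cells, and both type I collagen genes were among the 10 largest gains in CPM, which Malat1 led. Col1a2 was at 2600 CPM in wild-type and 9166 CPM in mutant cells (1.82), and Col1a1 at 2090 and 7384 CPM (1.82); together they encode type I collagen of bone, tendon and skin. Col3a1, its companion in soft tissue, was at 342 and 1452 CPM (2.09). Of 16 measured fibrous collagens, 13 were 2-fold higher and 0 lower, and the median was 1.70 against 0.15 for all measured genes; among cells with Col2a1 of 100 to 200 per 10000 the median was 0.34. Col14a1, which binds the surface of type I fibrils, had the largest ratio of the list at 14.8 and 150 CPM (3.34), followed by Col5a1, which nucleates those fibrils, at 63.9 and 455 CPM (2.83). The 3 members inside 2-fold were Col8a1, Col15a1 and Col4a2.

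Free RNA has to be read beside these genes, because in the mutant library it carried much type I collagen. Col1a1 was at 4354 CPM in mutant barcodes with a Ptprc UMI and at 342 CPM in wild-type ones. A UMI of it was found in 91.4% of such mutant barcodes and 89.7% of gated mutant cells, so the gated share was not above theirs. Before thinning, gated mutant cells were deeper, with a median of 11539 UMIs against 3999. A similar count of free RNA in each droplet would be a smaller part of a deeper cell. Similar shares therefore do not show that the UMIs in gated cells were free RNA. The median level in gated mutant cells, 13.3 per 10000 UMIs, was also close to the 12.7 of those barcodes, although the 90th percentile was 253 against 37.9. Col1a2 and Col5a1 stood apart from the background more clearly: the gated medians were 62.8 and 3.39 per 10000 UMIs against 13.1 and 0, and the wild-type gated medians were 7.75 and 0.

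Matrix glycoproteins of fibrous tissue followed in part, with 8 of 19 measured members 2-fold higher, 0 lower and a median of 0.98. Tnn, tenascin-W of periosteum and tendon, was at 1.65 and 71.5 CPM (5.43), Postn, periostin, at 5.52 and 65.0 CPM (3.56) and Tnc, tenascin-C, at 10.5 and 84.4 CPM (3.00). Sparc, a collagen chaperone and the most abundant member, was at 18951 CPM in the wild type and 18203 CPM in the mutant (-0.06). Postn was at 78.9 CPM in mutant barcodes with a Ptprc UMI, above the 65.0 CPM of gated cells. Leucine-rich proteoglycans split as well: Ogn (55.5 and 222 CPM, 2.0), Lum (274 and 1050 CPM, 1.94) and Dcn (1080 and 2457 CPM, 1.19), which regulate type I fibrils, were higher, and Prelp was the only lower member of 7. Adamts2, the protease that trims procollagen I, was at 6.69 and 56.0 CPM (3.07), and Pcolce, which enhances procollagen cleavage, at 231 and 608 CPM (1.40), while its relative Pcolce2 was at 485 and 217 CPM (-1.16).

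Genes of bone and mineral were among the highest. Ibsp, bone sialoprotein, was at 434 CPM in wild-type and 5764 CPM in mutant cells (3.73), and Bglap, osteocalcin, at 74.3 and 1129 CPM (3.93). Spp1, osteopontin, was at 267 and 1649 CPM (2.63), and Alpl, the phosphatase that frees phosphate for mineral, at 127 and 647 CPM (2.35). Of 14 measured members of the osteoblast and mineral list, 7 were 2-fold higher and 1 lower, with a median of 1.05. The lower member was Bglap2, at 43.7 and 6.003 CPM (-2.86), a near-identical copy of Bglap with which it can share reads, so the split between the copies is uncertain. The master regulators of osteoblasts were inside 2-fold: Runx2 at 49.2 and 71.3 CPM (0.53) and Sp7, osterix, at 16.1 and 26.2 CPM (0.71).

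These transcripts were concentrated in few cells. In the mutant, 50% of the Ibsp UMIs lay in 59 of 2599 gated cells (2.27%), of the Bglap UMIs in 45 and of the Spp1 UMIs in 35, whereas Acan needed 464 cells (17.9%) and Col1a2 386 (14.9%). The median gated mutant cell had 2.91 Ibsp UMIs per 10000, below the 3.51 of barcodes with a Ptprc UMI, but the 90th percentile was 90.2 against 13.9. In thinned cells Ibsp was found in 12.7% of wild-type and 61.2% of mutant gated cells, with 6.93% and 56.4% in barcodes with a Ptprc UMI. The interval for gated mutant cells was 59.2 to 63.2 and that for the mutant background 52.5 to 60.2, so the 2 overlapped. Mutant cells with 0 Ptprc UMIs below the gate were higher still, at 11612 CPM of Ibsp, and osteoblast markers summed to 34399 CPM there against 14304 CPM in gated cells. Whether cells of the osteoblast lineage, or droplets holding 2 cells, give these UMIs was not tested.

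Mmp13, the collagenase that opens cartilage to bone, was at 7.04 CPM in wild-type and 318 CPM in mutant cells, a 45.1-fold difference (log2 5.50). In thinned mutant cells its share was 20.9% (19.3 to 22.6), not above the 23.0% (19.9 to 26.4) of barcodes with a Ptprc UMI. Those barcodes held it at 271 CPM. They were shallower before thinning, so similar shares do not show that the Mmp13 UMIs in gated cells were free RNA. The mean count was nevertheless 3.99 UMIs per gated mutant cell against 1.57 per such barcode, and 50% of the UMIs lay in 37 cells. Cryba2, a crystallin, was similar, at 3.83 and 120 CPM, with 50% of its mutant UMIs in 10 cells and 196 of its 227 wild-type UMIs in 3 cells. In the list of metalloproteinases and inhibitors, Mmp13 included, 7 of 16 measured members were 2-fold higher and 0 lower, with a median of 0.83. Htra1, a serine protease that cleaves cartilage matrix, was at 181 and 667 CPM (1.88), Mmp3, stromelysin, at 2.79 and 28.6 CPM (3.36), and Timp2, a metalloproteinase inhibitor, at 248 and 614 CPM (1.31).

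Markers of hypertrophic chondrocytes gave no single direction, with 4 of 12 measured members 2-fold higher, 2 lower and a median of 0.54. The 4 higher members, Mmp13, Ibsp, Alpl and Spp1, are shared with bone cells. Col10a1, the collagen specific to hypertrophic cartilage, was at 729 and 533 CPM (-0.45), and Ihh, the hedgehog ligand of prehypertrophic cells, at 65.3 and 74.0 CPM (0.18). Panx3, a channel of prehypertrophic and hypertrophic cells, was at 147 and 59.8 CPM (-1.29), and Runx3, a transcription factor of hypertrophy, at 43.6 and 16.4 CPM (-1.41). Col10a1 was detected in 15.4% of thinned wild-type and 8.43% of mutant cells. Barcodes with a Ptprc UMI had it in 18.8% and 10.4%, so the gated shares were not above theirs.

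A second group of high genes was spread over more cells, and in it Rbp4 and Prrx2 stood clear of barcodes with a Ptprc UMI. Rbp4, the retinol carrier, was at 220 CPM in wild-type and 1922 CPM in mutant cells (3.13), with a UMI in 35.7% and 87.0% of thinned cells against 2.64% and 22.1% in barcodes with a Ptprc UMI. Prrx2, a homeobox factor of limb mesenchyme, was at 3.19 and 80.6 CPM (4.66) and in 1.0% and 19.2% of cells, against 0% of 303 wild-type barcodes (interval up to 1.21%) and 2.67% of mutant barcodes. Of the Rbp4 UMIs in the mutant, 50% lay in 351 cells (13.5%), and of the Prrx2 UMIs in 273 (10.5%). Olfml2b, a secreted olfactomedin-domain protein, was at 9.35 and 115 CPM (3.62) and spread in the same way, with 50% of UMIs in 289 cells. Its share in thinned cells was not taken.

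A further group was low over all wild-type cells and found in a minority of mutant cells. Slurp1, a secreted Ly6-family protein, was at 0.608 and 113 CPM, a 186-fold difference, with a UMI in 0.262% and 7.40% of thinned cells. Myoc, myocilin, was at 5.22 and 197 CPM (5.24) and in 1.67% and 20.8% of cells, and Pi15, a secreted protease inhibitor, at 1.17 and 70.4 CPM (5.92) and in 0.453% and 14.9%. Barcodes of the mutant with a Ptprc UMI had shares of 1.34%, 3.71% and 1.48% for these 3 genes, below the gated shares. Among cells with Col2a1 of 100 to 200 per 10000, Myoc was at 156 CPM in the 202 wild-type and 284 CPM in the 1062 mutant cells (0.86, inside 2-fold), and Pi15 at 20.1 and 95.4 CPM (2.25). Pi15 was found in 31.0% of mutant cells with a Myoc UMI and 10.6% of those without. Myoc was found in 14.9% of cells with an Mmp13 UMI and 22.4% of those without. The share of cells with an Mmp13 UMI was not above that of barcodes with a Ptprc UMI. How many of those UMIs were free RNA was not tested, so that split cannot show whether Myoc and Mmp13 lie in different cells. Myoc UMIs also lay beside cartilage transcripts, since Acan was found in 86.4% of Myoc-positive and 89.6% of Myoc-negative mutant cells. Igf1, insulin-like growth factor 1, was at 7.06 and 99.8 CPM (3.82) in gated cells. Its share was 1.69% in wild-type and 13.7% in mutant gated cells. Barcodes with a Ptprc UMI had it in 11.6% and 10.5%, so their share was not higher in the mutant. Whether those barcodes express Igf1 themselves was not tested.

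**Figure D3:**
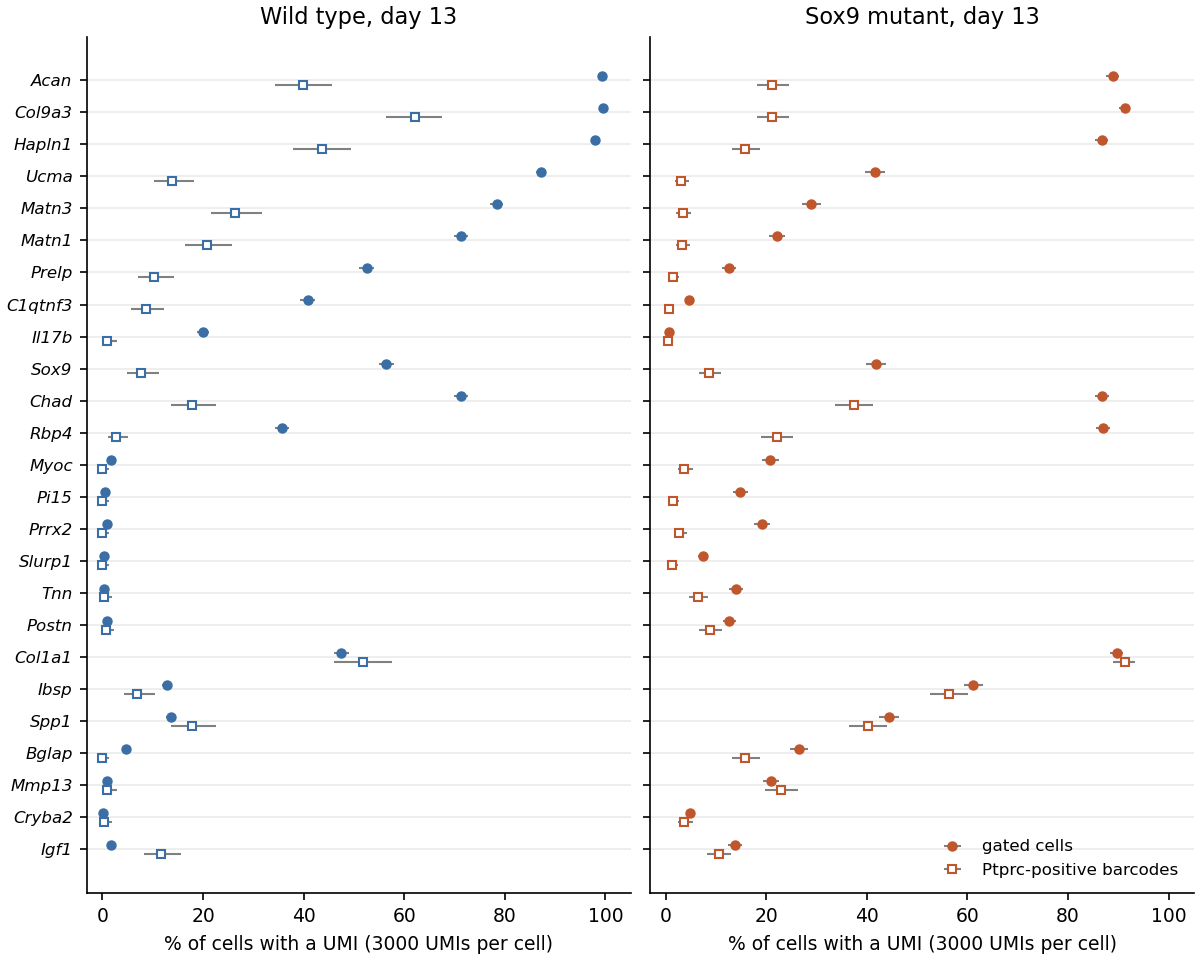
Percentage of cells with at least 1 UMI of each gene after thinning to 3000 UMIs, in the wild-type (left) and mutant (right) library of day 13; filled circles are gated cells, open squares barcodes with a Ptprc UMI, and bars exact 95% intervals. In the mutant, gated cells stand far above the squares for Rbp4 (87.0% against 22.1%) and Myoc (20.8% against 3.71%), and lie on them for Col1a1 (89.7% against 91.4%) and Mmp13 (20.9% against 23.0%).

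Transcription factors of limb mesenchyme and tendon were higher in 9 of 15 measured cases and lower in 0, with a median of 1.19. Besides Prrx2 they included Scx, scleraxis of tendon progenitors, at 3.80 and 20.3 CPM (2.42), Prrx1 at 16.7 and 72.1 CPM (2.11), Creb3l1, a stress-activated regulator of type I collagen, at 37.8 and 161 CPM (2.09), Twist1 (1.24) and Zeb1 (1.25). The chondrocyte transcription factors were mostly inside 2-fold (14 of 18 measured). Runx1, a factor of early chondrocytes and blood, was at 65.0 and 238 CPM (1.87) and Arid5b, a co-factor of SOX9, at 28.7 and 65.2 CPM (1.19). Foxa3, a forkhead factor of hypertrophic cartilage, was at 32.5 and 13.0 CPM (-1.31).

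Genes of the joint surface were also higher, with 8 of 11 measured members 2-fold higher, 0 lower and a median of 1.44. That direction did not hold in every range of Col2a1: the median was -0.61 at 100 to 200 per 10000 and 0.23 at 800 or more, against 0.95 and 1.62 between them. Dkk3 was at 4.39 and 21.4 CPM (2.29), Sfrp2, a secreted Wnt modulator, at 19.8 and 92.7 CPM (2.23), Abi3bp at 60.4 and 223 CPM (1.88) and Clu, clusterin, at 158 and 500 CPM (1.66). Prg4, lubricin and the defining product of the surface, was at 672 and 457 CPM (-0.55). Prg4 had a UMI in 16.5% of thinned wild-type and 20.2% of mutant cells, so more mutant cells had a UMI while the summed level was lower. Markers of the resting zone were mixed, with 2 of 12 higher (Gas1 and Ctgf, 1.61 and 1.79), 3 lower (Ucma, Sfrp5 and Fgfr3, -1.95, -1.89 and -1.24) and a median of -0.09.

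**Figure D4:**
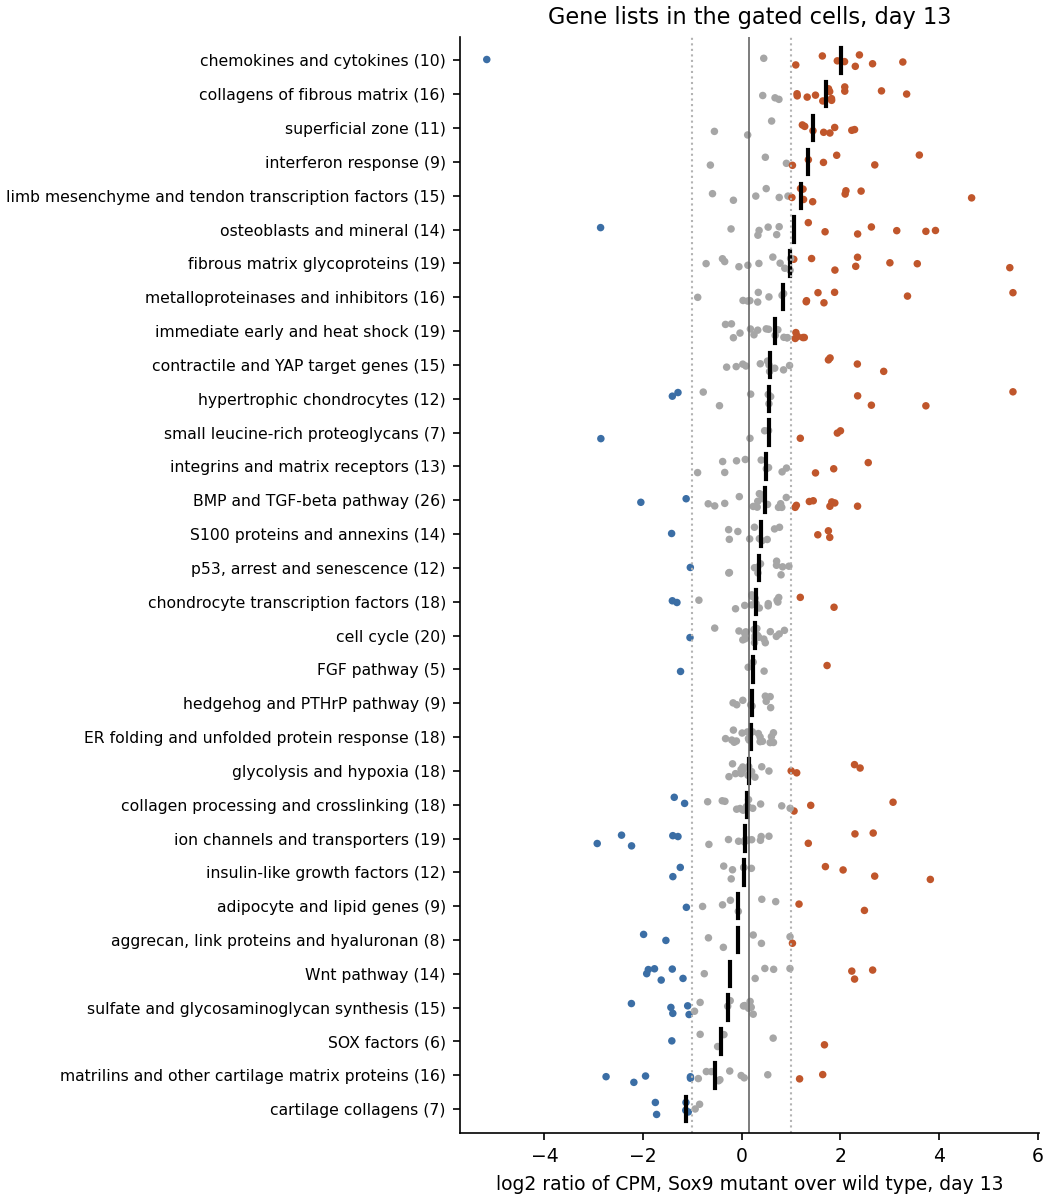
Log2 ratio of CPM, mutant over wild type, at day 13 for every measured member (points) of each gene list, with the list median (black bar) and the number of measured members in brackets; dotted lines mark 2-fold and the grey line is the median of all measured genes, 0.15. The fibrous collagens lie to the right with 13 of 16 members past 2-fold, and the cartilage collagens to the left with 5 of 7.

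Among secreted signals, the Wnt ligands Wnt4 and Wnt5b of the growth plate were lower. Wnt4 was at 106 CPM in wild-type and 27.8 CPM in mutant cells (-1.93) and Wnt5b at 43.7 and 12.8 CPM (-1.77). The secreted antagonists differed in direction, with Sfrp5 at 115 and 31.1 CPM (-1.89) and Frzb at 184 and 80.6 CPM (-1.19) lower, and Dkk1 (1.74 and 10.9 CPM, 2.65), Dkk3 and Sfrp2 higher. Across the list 3 of 14 measured members were higher and 6 lower, with a median of -0.24.

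In the BMP and TGF-beta pathway 8 of 26 measured members were higher and 2 lower, with a median of 0.47. The TGF-beta ligands Tgfb3 (14.9 and 52.7 CPM, 1.82) and Tgfb2 (81.4 and 175 CPM, 1.11) were higher. Bmp7 (22.1 and 5.36 CPM, -2.05) and Gdf10 (36 and 16.4 CPM, -1.13) were lower, and the BMP target genes Id1 (-0.05), Id2 (0.42), Id3 (0.42) and Id4 (0.31) were inside 2-fold. Of the FGF receptors, Fgfr3, the brake on chondrocyte growth, was at 159 and 67.2 CPM (-1.24) and Fgfr2, the receptor of osteoprogenitors, at 31.2 and 103 CPM (1.73), and Fgfr1 was at 171 and 201 CPM (0.23). None of 9 measured hedgehog and PTHrP pathway genes was 2-fold apart, among them the receptor Ptch1 (0.48) and Pth1r (0.58). Over all measured genes 7.73% were higher and 2.38% lower, so a count of 0 among 9 genes says little about this pathway.

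The IGF list held 4 of 12 higher and 2 lower members. Its higher members were Igf1 and the binding proteins Igfbp6 (8.81 and 57.0 CPM, 2.69), Igfbp5 (47.3 and 196 CPM, 2.05) and Igfbp4 (88.4 and 286 CPM, 1.69). The lower members were Pappa2, a protease that cleaves IGF binding proteins (22.4 and 8.52 CPM, -1.40), and Stc2, its inhibitor (29.1 and 12.3 CPM, -1.25).

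Chemokines and cytokines were higher in 8 of 10 measured cases, with Il17b the only lower member and a median of 2.01. Cxcl1, a neutrophil chemokine, was at 9.03 and 56.7 CPM (2.65), Csf1, the macrophage growth factor, at 6.48 and 33.8 CPM (2.38) and Lcn2, lipocalin 2, at 3.93 and 37.8 CPM (3.26). Lcn2 was at 1542 and 1457 CPM in barcodes with a Ptprc UMI, where neutrophils express it, and neutrophil markers in gated cells summed to 89.9 CPM in the wild type and 272 CPM in the mutant. Interferon-related genes (6 of 9 higher, 0 lower, median 1.35) included Ifitm3 at 12.8 and 83.1 CPM (2.70) and Ly6c1 at 5.45 and 66.1 CPM (3.60). Ifitm3 was at 709 and 586 CPM in barcodes with a Ptprc UMI, and Ly6c1 at 0.366 and 13.2 CPM. The part of blood-cell RNA in the levels of Lcn2 and Ifitm3 was not tested.

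Receptors for matrix and contractile genes differed in a few members. Over all measured genes 7.73% were higher and 2.38% lower, so a count of 0 lower among 13 or 15 genes says little. Of 13 measured integrins and matrix receptors 3 were higher and 0 lower: Itga11, the type I collagen receptor (2.75 and 16.3 CPM, 2.56), Itgbl1 (1.86) and Itga5, the fibronectin receptor (1.49). Of 15 contractile and YAP target genes 4 were higher and 0 lower, among them Tpm2, a tropomyosin (26.1 and 132 CPM, 2.34), and Ctgf, a connective tissue growth factor (139 and 480 CPM, 1.79). Of 19 ion channels and transporters 3 were higher and 5 lower, the lowest being Car12, Fxyd2 and Slc38a3 (39.6 and 8.42 CPM, -2.23).

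Lists that describe general cell state differed in the number of calls they held. Over all measured genes 7.73% were higher and 2.38% lower. None of 18 measured genes of protein folding and the unfolded protein response was 2-fold apart (median 0.18, with Hspa5 at 0.42 and Ddit3 at 0.60). None of 20 cell cycle genes was higher and 1, Stmn1, was lower, with a median of 0.27. That median differed in sign between ranges of Col2a1. It was -0.43 at 100 to 200, -0.30 at 200 to 400, 0.35 at 400 to 800 and 1.18 at 800 or more. In the highest of these ranges the median of all measured genes was 0.06. Over all gated cells, those with cycling transcripts were 7.91% of wild-type and 8.35% of mutant cells. Cdkn1c, the cell cycle inhibitor p57 of cartilage that leaves the cycle, was at 1553 and 753 CPM (-1.04) and was the only 1 of 12 genes of arrest and p53 response past 2-fold. Glycolysis genes were inside 2-fold except Hk2 (1.11); Ndrg1 (1.0) was at the 2-fold line, and the hypoxia targets Car9 (2.40) and Ankrd37 (2.28) were higher, from levels under 5 CPM in the wild type. Of 14 S100 proteins and annexins 3 were higher and 1 lower, of 9 lipid genes 2 and 1, and of 3 Notch pathway genes 0 and 0. S100b, a cartilage calcium-binding protein and a target of SOX9, was the lower member of its list, at 384 and 143 CPM (-1.42). Immediate early and heat shock genes, which tissue digestion can raise, were higher in 5 of 19 cases (Junb 1.10, Ier3 1.24, Nr4a1 1.27, Hspa1b 1.13 and Hspb1 1.08) and lower in 0, with a median of 0.68 against 0.15 for all measured genes. Malat1, a nuclear non-coding RNA, was at 16957 and 35798 CPM (1.08), and mitochondrial UMIs had medians of 3.57% and 3.19% per cell.

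The called genes were also read against other barcodes of the library in which they are higher, a choice that favours levels above background. Of the 174 lower genes, 156 (89.7%) were above the level of barcodes with a Ptprc UMI in the wild type, where they are high. Of the 565 higher genes, 407 (72.0%) were above that level in the mutant, 317 (56.1%) by 2-fold or more, and 225 (39.8%) were above the mutant cells with 0 Ptprc UMIs below the gate. When the mean UMIs of barcodes with a Ptprc UMI were subtracted from each gated cell, 472 of the 565 (83.5%) and 163 of the 174 (93.7%) were still 2-fold apart.

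Because the mutant cells had less Col2a1, the libraries were also compared within 4 ranges of Col2a1. At 200 to 400 per 10000 (653 wild-type and 824 mutant cells), 504 of the 565 higher genes (89.2%) and 142 of the 174 lower genes (81.6%) were still 2-fold apart. At 400 to 800 (2330 and 514 cells) these were 420 (74.3%) and 106 (60.9%), and at 800 or more (1356 and 199 cells) 171 (30.3%) and 58 (33.3%). The ranges narrow the difference in Col2a1 but do not remove it: in the second range Col2a1 was at 33764 and 28181 CPM (-0.26). Acan was at 4639 and 1059 CPM in the second range (-2.13). It was at 4791 and 1502 CPM in the third (-1.67) and 3143 and 1324 CPM in the highest (-1.25). Ibsp had ratios of 4.50, 3.20 and 1.16 in those ranges, and Mmp13 4.50, 4.36 and 4.48, against 2.64 and 1.68 in the lowest range. Rbp4 went from 4.12 to 3.06 and 1.84, and Sox9 from -1.13 to -0.75 and -0.55. Other lower matrix genes in the highest range had ratios of -0.11 (Col11a2), -0.24 (Matn3), -0.31 (Hapln1), -0.69 (Col9a3) and -1.14 (Prelp).

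The lowest range, 100 to 200, compared 202 shallow wild-type cells of median depth 1706 UMIs with 1062 mutant cells of 11044 UMIs. There 204 of the 565 higher genes (36.1%) and 79 of the 174 lower genes (45.4%) were still 2-fold apart, and 128 and 25 had the opposite sign. Col1a1 was at 9332 CPM in those wild-type cells and 6841 CPM in the mutant (-0.45), and Spp1 had a ratio of -0.56. Hbb-bs, a haemoglobin gene, was at 17070 CPM in those wild-type cells and 1099 CPM in the mutant. Acan (-0.99), Prelp (-2.50) and Rbp4 (2.67) kept their direction.

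**Figure D5:**
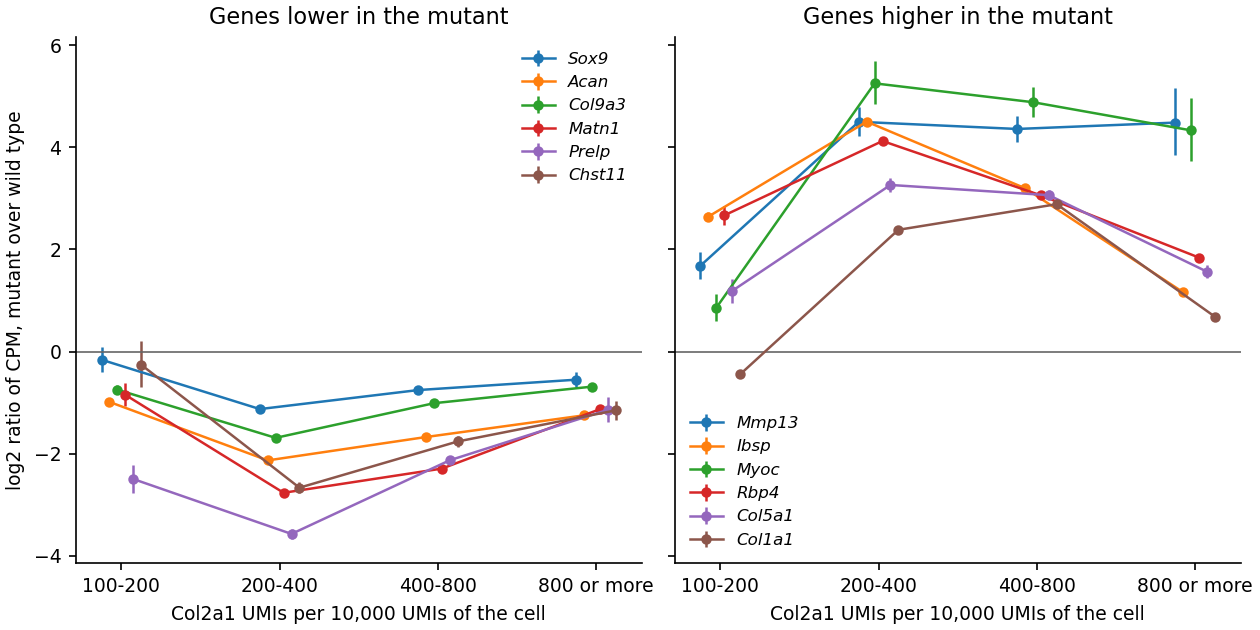
Log2 ratio of CPM, mutant over wild type at day 13, within 4 ranges of Col2a1 per 10000 UMIs, for 6 lower genes (left) and 6 higher genes (right); bars are 95% counting intervals. Acan stays below 0 in all 4 ranges, from -0.99 to -2.13, while Col1a1 is at -0.45 in the lowest range and 2.89 at 400 to 800.

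Acan and Col9a3 were at similar levels in mutant cells with and without a Sox9 UMI. Of the thinned mutant cells, 1019 had a Sox9 UMI and 1412 had none. Acan was at 1105 CPM with and 1019 CPM without (0.12), and Col9a3 at 2043 and 2027 CPM (0.01), both far below the wild-type level. Matn1 (299 and 230 CPM, 0.38), Prelp (80.5 and 56.4 CPM, 0.51) and Myoc (282 and 176 CPM, 0.68) were higher beside a Sox9 UMI, and Mmp13 was lower (202 and 345 CPM, -0.77). The same split in the wild type gave 0.14 for Acan, 0.41 for Prelp and -1.06 for Mmp13, but -0.04 for Matn1 and -0.69 for Myoc, which had the other sign there. At 3000 UMIs a cell without a Sox9 UMI can still express the gene, and the cells of each side come from 1 library, so these are descriptions.

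At day 19 the same gate took 1088 wild-type and 2252 mutant cells, in libraries that share no sample with day 13. Of 7337 measured genes 452 were higher in the mutant (6.16%) and 185 lower (2.52%). Of the 565 genes higher at day 13, 324 (57.3%) were also 2-fold higher at day 19 and 0 were 2-fold lower, which is 71.7% of the genes higher at day 19. Of the 174 lower at day 13, 100 (57.5%) were 2-fold lower at day 19, which is 54.1% of the genes lower then, and 1 was 2-fold higher. Acan was at 4248 and 1304 CPM at day 19, Il17b at 364 and 2.63 CPM, Mmp13 at 3.53 and 156 CPM and Myoc at 11.5 and 268 CPM, with directions as at day 13. Matn1 was at 1917 CPM in the wild type of day 13 and 578 CPM in that of day 19, with 285 and 239 CPM in the mutants, and Ibsp was at 1255 and 2687 CPM at day 19 (1.10), both with a smaller ratio than at day 13. Age and library cannot be told apart with 1 library each, and the difference between the ages was not tested.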

How the data were processed

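The deposited matrices hold UMI counts, 1 value for each gene in each barcode. Cell Ranger 3.1.0 made them, per the file headers, on mm10, per the submitters' processing notes, which also name Seurat 3 with no role. Age and genotype follow the sample labels; the series' design text instead gives an age of 3 months and names, besides Sox9 mutants, animals mutant for Sox8 and Sox9 together. Of 31053 features, 30934 matched GENCODE M21, used for coordinates. The libraries held 70507107 to 76080803 UMIs in 8053 to 12714 barcodes, the lowest with 500 UMIs.

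UMIs of gated cells were summed per library (Python 3.11.15, numpy 2.4.6, scipy 1.17.1, pandas 2.3.3). Ratios are of plain CPM, with a count of 0 set to 3, and carry exact conditional binomial 95% intervals. In simulated counts with 200 of 7311 genes changed, 94.8% of the intervals held the true ratio. Those counts were drawn with counting error alone, which the intervals assume. The simulation therefore checks the calculation only and does not cover spread between cells or mice. Shares carry Clopper-Pearson intervals after thinning to 3000 UMIs, which left out 349 wild-type and 168 mutant gated cells. The background barcodes had 1 or more Ptprc UMIs and Col2a1 under the gate (516 and 1109, median 3527 and 3999 UMIs). TMM (edgeR 4.0.16) and DESeq2 1.42.0 (R 4.3.3) gave scaling factors only. No count test was run. Doublets were scored with Scrublet (scanpy 1.11.5); its automatic threshold called 86 of 6340 wild-type and 0 of 7429 mutant barcodes, so it was not used and no doublets were removed.

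The members, the 47 gene lists and the rules were chosen with earlier results of these data known. Named genes are Sox9, Sox5, Sox6, Sox8, Acan and Col2a1, the 12 highest and 12 lowest ratios among genes that reach 50 CPM in their higher library and exceed its background barcodes, the 10 largest gains and losses in CPM, and up to 4 members per list past 2-fold with those that go against their list. The rankings omit mitochondrial, ribosomal protein, haemoglobin, Y-linked and X-inactivation genes and gene models with Gm or Rik names. Other list members named in the text were chosen after their values were seen.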

Additional observations from a re-analysis of the deposited data

How the results depend on the processing

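No paired analysis was possible because each group is 1 library. Genes 2-fold or more higher and lower numbered 565 and 174 as reported, 341 and 111 with Col2a1 at 400 or more, 2865 and 860 without a filter on low levels, and 206 and 77 at 50 CPM or more; the other alternatives stayed within 1.5 times. The share of kept barcodes inside the gate, mutant minus wild type, was -36.6 percentage points as reported, -27.6 with Col2a1 at 50 or more, -47.7 at 200, -48.5 at 400 and -38.5 of barcodes with 0 Ptprc UMIs. For single genes and list medians, 1370 alternative values stayed close and 1663 moved by more than counting error. A further 46 had the opposite sign to a reported value 2-fold or more apart. These 46 lay within the lowest or highest range of Col2a1 except for S100a8 and S100a9, and the cause was not tested. Signs also turned for values reported inside 2-fold, which are not among the 46. Examples are Sox5 (0.04 at Col2a1 of 800 or more), the cell cycle median (-0.30 at 200 to 400) and the collagen processing median (-0.04 with DESeq2 size factors).

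Within Col2a1 of 100 to 200, the log2 ratio was 0.21 for Sox8, 0.59 for Tnni2, -0.16 for Cryba2, -0.45 for Col1a1, -0.56 for Spp1, -1.19 for Sox4, 0.66 for Foxa3, -0.00978 for Tnc, -0.15 for Eln, -0.52 for Adamts5, -0.0228 for Ifitm5, -0.61 for Dkk3, -0.62 for Gdf5, -1.25 for Gas1, -0.69 for Dkk1, -1.10 for Igfbp5, 0.58 for Pappa2, 0.11 for Stc2, -1.13 for Irf1, 0.0525 for Scd1, -0.34 for S100a6, -0.42 for Junb, -0.26 for Atp1b1, -0.60 for Aqp1, -0.61 for Ank, -2.96 for S100a8 and -2.87 for S100a9, and the median was -0.61 for the superficial zone and -0.72 for neutrophil markers. Within 800 or more it was 0.21 for Runx3, 0.41 for Pcolce2, -0.51 for Adamts5, 0.39 for Bmp7, -0.16 for Igfbp4, -0.0826 for Csf1, -0.37 for Fabp5, 0.26 for Scd1, -0.0664 for Ndrg1, 0.45 for Stmn1, -0.0468 for Camp, -0.12 for Ngp, -0.32 for S100a8 and -0.15 for S100a9, and -0.13 for the median of neutrophil markers. With every cell weighted the same, S100a8 was at -0.40 and S100a9 at -0.28.

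Leaving out called doublets was not run, since the automatic threshold called 0 mutant barcodes. Leaving out the 5% of barcodes with the highest scores (317 and 371, of which 218 and 152 were gated), an alternative chosen after seeing the data like the subtraction of free RNA and the call relative to the median of all genes, gave 558 higher and 180 lower genes. Depth limits single cells: at 3000 UMIs a gene near 50 CPM is missed in most cells.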

Other observations

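Spata7, a gene of photoreceptor cilia, stood apart in 1 library and was chosen after its values were seen. It was at 8.17 CPM in the gated cells of the wild type at day 13, 73.6 CPM in the mutant of that day, and 76.5 and 81.8 CPM in the wild type and mutant of day 19. Barcodes with a Ptprc UMI gave 28.2, 85.6, 72.2 and 145 CPM in the same order, so the same library was lowest outside the gate. Crispld1 and Tnfaip6, also chosen after their values were seen, were 2-fold higher in the mutant at day 13 inside the gate, among barcodes with a Ptprc UMI and below the gate, and not at day 19 (0.01 and 0.41 on the log2 scale).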
